A study of Arabidopsis thaliana with 22 samples.

Results

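The stretch of chromosome 1 described here runs from AT1G21000 to AT1G28999, on the high-number side of *BES1* (AT1G19350), and holds 790 gene identifiers in the deposited table. Members were chosen by AGI number and by the mean normalized reads over all libraries, and the stretch itself was picked with earlier differences between *bes1-D* and WT in view, among them that of untreated AT1G27580. Of the identifiers, 363 had a mean below 10 normalized reads over the 22 libraries and 10 were left out by name, which left 417 members of 32833 genes in all, or 2.55% of the 16331 genes that were tested. The member nearest the threshold from inside was AT1G27420, with a mean of 10.03 normalized reads, and the nearest gene outside was AT1G26520, with 9.97. The member means ran from 10.03 to 8388, with a median of 55.8. In 395 members the mean was at least 10 in each of WT, *baf1* and *bes1-D*. A further 7 reached the threshold only through *bes1-D*, with WT and *baf1* both under 10, and 7 others were at least 10 in WT and *baf1* and under 10 in *bes1-D*. Members of those 2 kinds had to differ in *bes1-D* to be included as they are, so no p is given for them. In the TAIR10.1 annotation the members span 2.77 Mb, starting 0.649 Mb and ending 3.42 Mb from the start of *BES1*, and 413 of them are protein-coding.

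Brassinosteroids are plant steroid hormones that promote cell elongation. Their signal activates the transcription factor BES1, which induces growth genes and represses brassinosteroid synthesis genes through short elements called the BR-response element and the E-box. Genes that lie near each other on a chromosome are inherited together, so a mutant allele moved into another accession by crossing can bring neighbouring DNA along.

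RNA from whole 7-day-old *Arabidopsis thaliana* seedlings was sequenced from the 3′ ends of transcripts. All plants are labelled as accession Col-0 and were grown on medium with DMSO (untreated) or with 250 nM brassinazole (BRZ), an inhibitor of brassinosteroid synthesis. WT had 4 untreated and 3 BRZ libraries, *bes1-D* had 4 and 3, and *baf1* had 4 and 4. *bes1-D* carries a dominant allele whose BES1 protein is stabilized, and the study describes it as an earlier mutant brought into Col-0. *baf1* is 1 T-DNA insertion line in the F-box gene *BAF1*, which lies outside the stretch. The *bes1-D* allele and any chromosome 1 DNA that came with it were present together in every *bes1-D* library, so the 2 cannot be told apart here. Fewer cells of a type and less RNA per cell also cannot be told apart in whole seedlings. The labels do not say which libraries came from separate cultures, so p-values measure the spread between these libraries.

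The libraries had an estimated 2017830 to 5217280 reads each, and replicates of a group correlated at 0.945 to 0.977. *BAF1* had 290 to 399 normalized reads in untreated WT and 5.80 to 12.9 in untreated *baf1*, which matches the labels, while *BES1* RNA was between 357 and 599 in every library and does not check the *bes1-D* label. Leaf and root markers were both present. The summed leaf markers were 40631 to 51960 normalized reads in untreated WT and 42802 to 48268 in untreated *bes1-D*, and 44795 to 50738 and 36336 to 44149 with BRZ. These sums hide leaf markers that moved in opposite directions. Untreated means in WT and *bes1-D* were 3541 and 6833 for *RBCS2B*, and 22641 and 24901 for *RBCS1A*. They were 13847 and 9701 for *LHCA1*, and 7918 and 4101 for *LHCB2.1*. The summed root markers were 1341 to 1584 in untreated WT and 930 to 1175 in untreated *bes1-D*, with no overlap, and 1308 to 2020 and 1122 to 1317 with BRZ. Over both conditions, summed seed storage markers were 10.3 to 272 in WT, 8.13 to 21.7 in *bes1-D* and 7.74 to 1752 in *baf1*. The highest sum was that of *baf1* BRZ replicate 4. The part of these markers in the results was not tested.

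The sequences shown first are the 250 bases before the annotated start of the 2 members that rose most and the 2 that fell most in untreated *bes1-D*, because BES1 acts through elements in such regions. They were read 5′ to 3′ on the gene's strand from the RefSeq TAIR10.1 genome, and capitals mark an E-box (CANNTG) or a BR-response element (CGTGTG or CGTGCG) on either strand. An E-box with the letters CACGTG is also called a G-box.
AT1G27580, chr1:9591076-9591325, minus strand: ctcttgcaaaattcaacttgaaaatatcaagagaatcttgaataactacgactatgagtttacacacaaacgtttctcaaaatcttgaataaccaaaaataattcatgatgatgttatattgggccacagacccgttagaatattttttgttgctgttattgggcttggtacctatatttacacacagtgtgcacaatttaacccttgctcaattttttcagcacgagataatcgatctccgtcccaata
AT1G26530, chr1:9165110-9165359, plus strand: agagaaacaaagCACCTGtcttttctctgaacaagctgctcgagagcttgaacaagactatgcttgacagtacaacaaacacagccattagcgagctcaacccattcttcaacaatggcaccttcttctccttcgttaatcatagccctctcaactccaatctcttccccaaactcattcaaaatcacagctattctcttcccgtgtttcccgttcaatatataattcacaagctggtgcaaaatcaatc
AT1G23960, chr1:8480357-8480606, minus strand: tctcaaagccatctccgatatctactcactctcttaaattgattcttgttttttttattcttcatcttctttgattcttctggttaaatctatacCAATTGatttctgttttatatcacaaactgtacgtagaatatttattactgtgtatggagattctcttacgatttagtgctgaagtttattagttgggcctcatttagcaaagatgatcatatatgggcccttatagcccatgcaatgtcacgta
AT1G21270 (WAK2), chr1:7444499-7444748, plus strand: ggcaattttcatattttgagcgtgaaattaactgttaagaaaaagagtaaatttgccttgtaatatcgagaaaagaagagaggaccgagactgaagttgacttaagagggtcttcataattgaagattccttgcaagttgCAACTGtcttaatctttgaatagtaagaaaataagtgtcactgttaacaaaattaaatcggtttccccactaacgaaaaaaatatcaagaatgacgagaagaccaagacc

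None of these 4 windows held a BR-response element, and 3 of them held 1 E-box each. Among the 27 members that were lower in *bes1-D* in both conditions, 2 (7.41%) had a BR-response element in the same window, and among the 17 that were higher, 2 (11.8%) had one. Over all 16330 tested genes with a window the share was 6.86%, and over the 417 members it was 6.71%. An E-box was present in 63% of the 27, in 47.1% of the 17 and in 56.5% of all tested genes. A match describes letters only, and no match says only that these letters are not in the window.

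In untreated seedlings, 63 members were called in *bes1-D* against WT at an adjusted p under 0.05 (limma, Benjamini-Hochberg over all 16331 genes), 29 higher and 34 lower. That was 15.1% of the members, where 7.5% of all tested genes were called. The 29 higher calls were 6.95% of the members against 4.04% of all genes, and the 34 lower calls were 8.15% against 3.46%. Because the stretch was picked with such differences in view, these untreated values are a description. The median log2 change over the members was 0.09, next to 0.08 over all tested genes, so the stretch did not shift one way as a whole.

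The libraries grown on BRZ share no library with the untreated ones and were tested separately, although how far BRZ results guided the choice of the stretch is not known. There, 85 members (20.4%) differed between *bes1-D* and WT, where 11.1% of all tested genes did. Of these, 40 were higher (9.59% against 5.76% of all genes) and 45 were lower (10.8% against 5.3%). Without WT BRZ replicate 3 the count was 54 (12.9% of members against 6.06% of all genes), and without *bes1-D* BRZ replicate 5 it was also 54 (12.9% against 6.54%). At the thresholds of the study, an unadjusted p under 0.05 and a fold above 1.1, here with limma p-values where the study used PoissonSeq, 143 members (34.3%, against 22.3% of all genes) were called untreated and 144 (34.5%, against 24.3%) under BRZ. The values of *bes1-D* and WT did not overlap for 103 members untreated (24.7%, against 14.4% of all genes) and for 157 under BRZ (37.6%, against 27.8%). The untreated count of calls was 41 (9.83% against 4.26%) without *bes1-D* replicate 2. When all 32833 genes were fitted with no filter on low values, 31 members were called untreated (7.43% against 1.38%) and 13 under BRZ (3.12% against 0.764%).

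Most of the untreated differences were present again under BRZ. Of the 63 members called untreated, 62 had the same sign under BRZ. No share with the same sign was taken over all genes, so the 62 is a description. Of the 63, 44 were also called under BRZ, 17 higher and 27 lower. These 44 were 10.6% of the members, where 3.7% of all tested genes were called the same way in both conditions. Put as a share of the untreated calls, 69.8% of the members' calls were made again under BRZ, and 49.4% of the 1225 calls over all genes were.

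**Figure D1:**
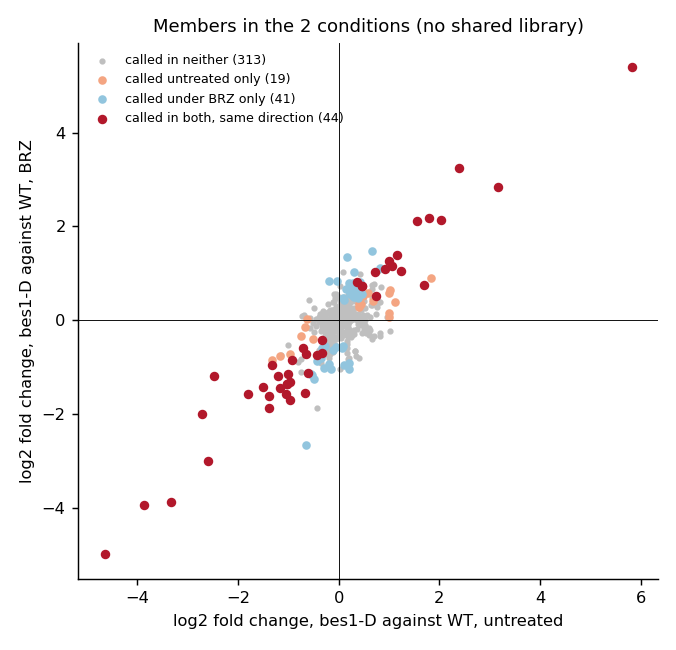
Each point is 1 of the 417 members, with its log2 fold change of *bes1-D* over WT in untreated seedlings on the x axis and in BRZ-grown seedlings on the y axis. Colours give the calls at an adjusted p under 0.05, and the 44 members called in both conditions (dark red) lie along the diagonal, from -4.64 to 5.82 on the x axis.

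Large changes were counted in the same way, as a description, since untreated differences guided the choice of the stretch. A call with a log2 change above 1 in size was made for 35 members untreated (8.39%, against 1.81% of all genes) and for 43 under BRZ (10.3%, against 3.66%). Both held, in the same direction, for 26 members (6.24%, against 1.08% of all genes), 10 higher and 16 lower. The members are 2.55% of the tested genes and made up 14.7% of the 177 genes of this kind. Among the 395 members with a mean of at least 10 in each genotype, a restriction added after the data were seen, 54 were called untreated (13.7%, against 7.32% of all 15738 such genes), 76 under BRZ (19.2%, against 11%), 36 in both (9.11%, against 3.55%), and 18 with a large change in both (4.56%, against 0.832%).

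AT1G27580, annotated as an F-box protein with a DUF295 domain, showed the largest rise. Untreated WT libraries had 3.46, 4.62, 0.646 and 3.08 normalized reads, and the *bes1-D* libraries had 207, 189, 207 and 210. Under BRZ, WT had 0, 6.54 and 6.66, and *bes1-D* had 175, 158 and 154. Every *bes1-D* library was far above every WT library, and the 8 *baf1* libraries were between 0 and 1.37. On the log2(value + 1) scale the difference was 5.40 ± 0.52 (SE, n = 3 each) under BRZ. It is 1 of the 7 members that passed the mean of 10 only through *bes1-D*. Which gene these reads came from is uncertain, since 216 bases of its 3′ end are identical to bases within the AT1G27540 gene. A second annotated gene, AT1G06103, also overlaps it on the same strand. AT1G06103 is no member by number, and it had 2.08 to 6.23 normalized reads in untreated WT and 137 to 228 in untreated *bes1-D*. With BRZ this gene had 285 to 316 in *bes1-D*, where AT1G27580 had 154 to 175, and the overlap covers 8.51% of AT1G27580.

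AT1G27540, the related F-box gene that holds those same bases, moved the other way. It had 76.7, 77.1, 97.8 and 84.0 normalized reads in untreated WT and 7.22, 15.9, 13.5 and 26.1 in untreated *bes1-D*. Under BRZ it had 79.3, 89.4 and 90.2 in WT and 27.5, 30.8 and 59.3 in *bes1-D*. The groups did not overlap in either condition, and it fell by 1.2 ± 0.26 (SE) on the log2 scale under BRZ, with a limma adjusted p of 0.00384. When the 3′ end of AT1G27540 was searched, no such match to AT1G27580 was found, so the genes were not shown to share their ends. Reads from the shared bases may not separate the genes, and their part in the fall and the rise was not tested.

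AT1G26530, annotated as a PIN domain-like protein, a fold found in RNA-cleaving enzymes, was low in WT. It had 3.88, 1.80, 3.52 and 6.69 normalized reads there untreated and 36.3, 40.6, 35.4 and 51.7 in *bes1-D*. Under BRZ the WT libraries had 2.30, 7.18 and 3.70, and the *bes1-D* libraries had 25.9, 45 and 36.1. All *bes1-D* libraries were above all others, and the log2 difference under BRZ was 2.83 ± 0.43 (SE). It also passed the mean of 10 only through *bes1-D*. It overlaps its neighbours AT1G26520 and AT1G26540 on the other strand.

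The 2 indole glucosinolate methyltransferase copies among the members rose together. These enzymes add methyl groups to indole glucosinolates, the sulphur-containing defence compounds of this plant family. *IGMT4* (AT1G21130), the more abundant copy, had 5534, 5087, 4663 and 4734 normalized reads in untreated WT and 17686, 15831, 14079 and 12070 in untreated *bes1-D*. Under BRZ it had 4531, 4039 and 3745 in WT and 17689, 22284 and 13881 in *bes1-D*, a log2 difference of 2.11 ± 0.16 (SE) with a limma adjusted p of 1.15e-08. *IGMT3* (AT1G21110) had 136 ± 18.9 normalized reads in WT under BRZ and 615 ± 72.2 in *bes1-D* (SD, n = 3 each), with a log2 difference of 2.17 ± 0.15 (SE). The groups did not overlap for either copy. The 3′ end of *IGMT3* is 90.6% identical over 224 bases to part of AT1G21120, a gene between the pair that was left out by name, so reads could be split between them.

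GDSL esterases, a family of lipid-cleaving enzymes, form a row of copies near the far end of the stretch. Of 9 listed copies 6 were tested, and they did not move together. AT1G28610 had 5.41, 6.62, 11.1 and 9.23 normalized reads in untreated WT and 51.3, 41.7, 42.8 and 44.8 in *bes1-D*. Under BRZ it had 2.35, 4.20 and 6.95 in WT and 58.6, 35.6 and 52.2 in *bes1-D*, a log2 difference of 3.24 ± 0.40 (SE). It too passed the mean of 10 only through *bes1-D*. *ARAB-1* (AT1G28670) went down instead. It had 161, 206, 184 and 201 in untreated WT against 38.4, 15.8, 34 and 28 in *bes1-D*, and 194, 146 and 141 against 39.0, 39.5 and 37.2 under BRZ. It fell by 2.01 ± 0.20 (SE) on the log2 scale under BRZ, with a limma adjusted p of 5.39e-07. Under BRZ AT1G28660 also rose, by 0.55 (limma adjusted p 0.0137), and AT1G28580 fell by 0.55 (limma adjusted p 0.0182), and neither was called untreated.

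The largest fall was that of AT1G23960, a protein of unknown function with a DUF626 domain. Untreated WT had 52.8, 57.0, 58.5 and 49.2 normalized reads, and *bes1-D* had 1.39, 0, 4.36 and 0.876. Under BRZ, WT had 49.4, 55.3 and 64.0, and *bes1-D* had 0.791, 0.560 and 1.02. The *bes1-D* libraries were close to 0 throughout, while *baf1* libraries had 38.7 to 80.7. It fell by 5 ± 0.45 (SE) on the log2(value + 1) scale under BRZ, a scale that understates a fall to such low values. It is 1 of the 7 members under 10 in *bes1-D* alone.

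*WAK2* (AT1G21270) encodes a wall-associated kinase, a receptor that spans the plasma membrane and binds pectin in the cell wall. It had 67.3, 49.2, 67.9 and 60.1 normalized reads in untreated WT and 2.82, 3.5, 2.96 and 3.77 in untreated *bes1-D*. Under BRZ it had 58.7, 32.1 and 72.8 in WT and 3.83, 0.611 and 4.03 in *bes1-D*. Groups did not overlap, and the log2 scale value fell by 3.95 ± 0.48 (SE) under BRZ. AT1G21280, annotated as a Copia-like retrotransposon protein, overlaps *WAK2* on the other strand and fell by 3.00 ± 0.51 (SE), from 17.9 to 29.2 normalized reads in WT under BRZ to 1.01 to 4.09 in *bes1-D*. Both are among the 7 members under 10 in *bes1-D* alone. Of the 5 wall-associated kinase genes listed only *WAK1* and *WAK2* were tested, and *WAK1* (AT1G21250) was not called, with means of 16.3 in untreated WT and 30.8 in untreated *bes1-D*, and of 19.2 and 19.7 under BRZ. The 3′ end of *WAK1* is 91.4% identical over 162 bases to part of AT1G21240.

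AT1G21400, annotated as a thiamin diphosphate-binding enzyme, had 105, 111, 85.2 and 115 normalized reads in untreated WT and 4.12, 10.8, 16.7 and 9.57 in *bes1-D*. Under BRZ it had 206, 188 and 159 in WT and 6.74, 8.25 and 26.1 in *bes1-D*, and it fell by 3.89 ± 0.34 (SE) on the log2 scale, with a limma adjusted p of 9.13e-08. WT was higher with BRZ than without, and *bes1-D* stayed low in both conditions.

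**Figure D2:**
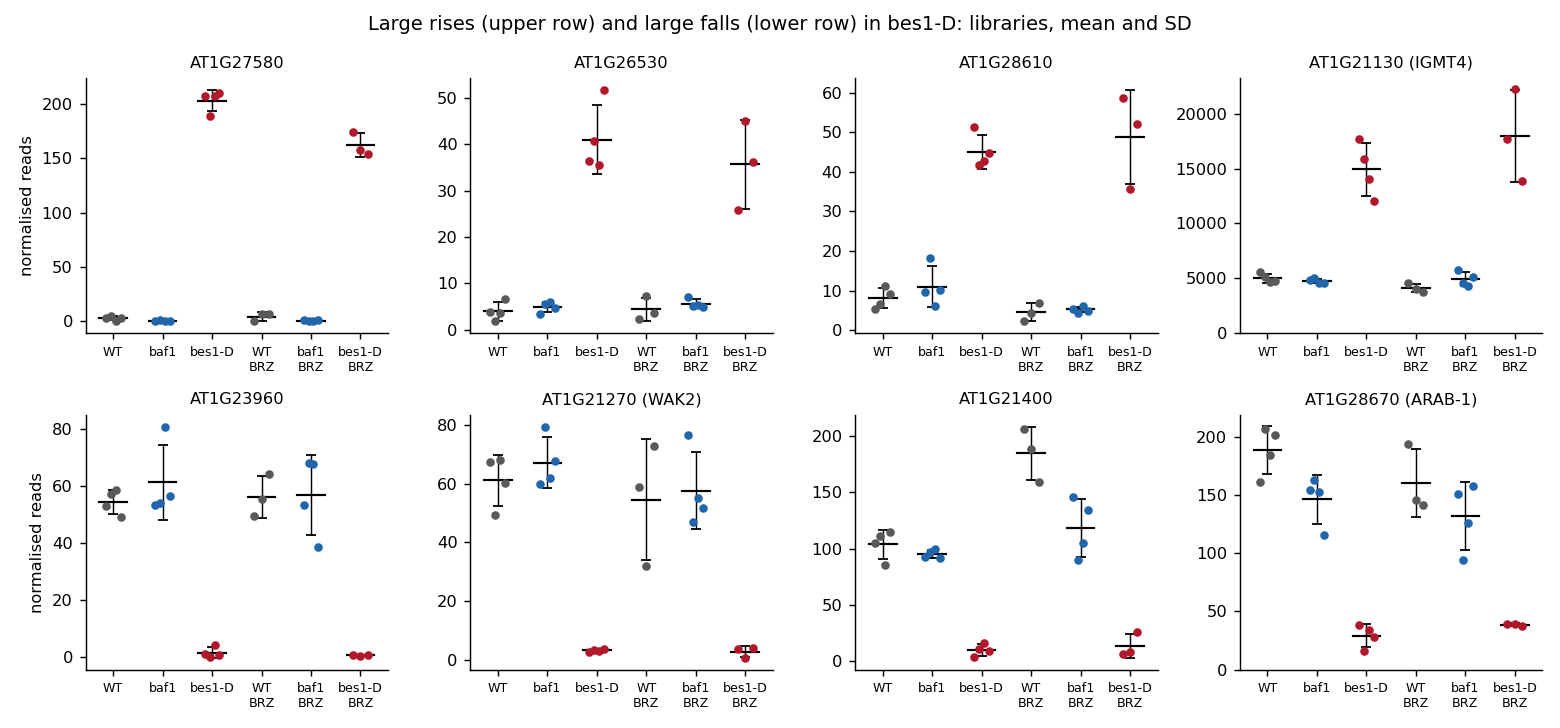
Normalized reads (y axis, linear) of 8 members in the 6 groups (x axis), with 1 point per library, a bar at the mean and whiskers of 1 SD. The upper row shows members that were higher in *bes1-D*, such as AT1G27580 with 154 to 210 in *bes1-D* and at most 6.66 in WT, and the lower row members that were lower, such as AT1G23960 with at most 4.36 in *bes1-D* and at least 49.2 in WT. No *baf1* difference from WT was called for these members.

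Other members among the 12 largest rises were also called under BRZ. *MLP423* (AT1G24020), a relative of the major latex proteins, had 101 ± 2.61 normalized reads in WT and 177 ± 48.4 in *bes1-D* under BRZ (SD, n = 3 each), with a limma adjusted p of 0.0148, and untreated 62.8 ± 12.6 and 203 ± 25.8 (SD, n = 4 each). Its BRZ call was lost without WT BRZ replicate 3 or without *bes1-D* BRZ replicate 5. AT1G23935, annotated as an apoptosis inhibitory protein, had 9.01, 47.5 and 24.9 in WT and 74.6, 111 and 125 in *bes1-D* under BRZ (limma adjusted p 0.000674), and it overlaps AT1G23950 on the other strand. AT1G27480, a hydrolase of the alpha/beta fold, had 44.8 ± 7.27 against 94.3 ± 22.9, AT1G25570, a leucine-rich repeat protein, 86.2 ± 19.8 against 190 ± 25.7, and AT1G27020, of unknown function, 605 ± 142 against 1564 ± 192 in WT and *bes1-D* under BRZ. All of these were higher in every *bes1-D* library than in any WT library of the same condition.

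A pair of the 12 was not called again. AT1G26250, a proline-rich protein of the extensin family of cell wall proteins, had 21 to 22.3 normalized reads in untreated WT and 72.3 to 88.2 in untreated *bes1-D*. Under BRZ it had 40.2, 7.63 and 12.9 in WT and 37.3, 20.1 and 38.2 in *bes1-D*, with a limma adjusted p of 0.215, and the groups overlapped. Without WT BRZ replicate 1 that value was 0.0252. AT1G21651, annotated as a zinc ion binding protein, had 16.8 ± 4.15 and 22.4 ± 5.68 under BRZ (limma adjusted p 0.527). Its untreated call, at 0.0453, was lost when any of 6 libraries was left out.

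Among the 12 largest falls, picked by their untreated size, 11 were called the same way under BRZ. They include AT1G23960, *WAK2*, AT1G21280 and *MDP40*, which had to differ in *bes1-D* to be included as they are, so their calls are no test. No share for equally large falls over all genes was taken, so the count is a description. *MDP40* (AT1G23060), a microtubule-associated protein that takes part in hypocotyl elongation, fell by 1.58 ± 0.45 (SE) on the log2 scale, from 19.2 ± 7.21 normalized reads in WT to 5.43 ± 0.547 in *bes1-D* (SD, n = 3 each). It is also under 10 in *bes1-D* alone, and its call was lost without any 1 of 4 libraries. *AGL87* (AT1G22590), a MADS-box transcription factor, had 110 ± 7.14 in WT and 40.3 ± 5.6 in *bes1-D*, and AT1G27670, of unknown function, had 67.7 ± 3.97 and 17.8 ± 2.46. The non-coding RNA AT1G23052 had 64.3 ± 8.85 and 20.2 ± 2.22. It overlaps AT1G23050 on the other strand. *SOFL1* (AT1G26210), a gene linked to cytokinin, had 40.1 ± 8.52 and 20.4 ± 5.96 (limma adjusted p 0.045), and its call was lost without any 1 of 5 libraries. It overlaps AT1G26208 on the other strand. AT1G22520, a subunit of a complex that shapes mitochondrial inner membranes, had 44.9 ± 6.39 and 25.1 ± 7.65 (limma adjusted p 0.0588).

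**Figure D3:**
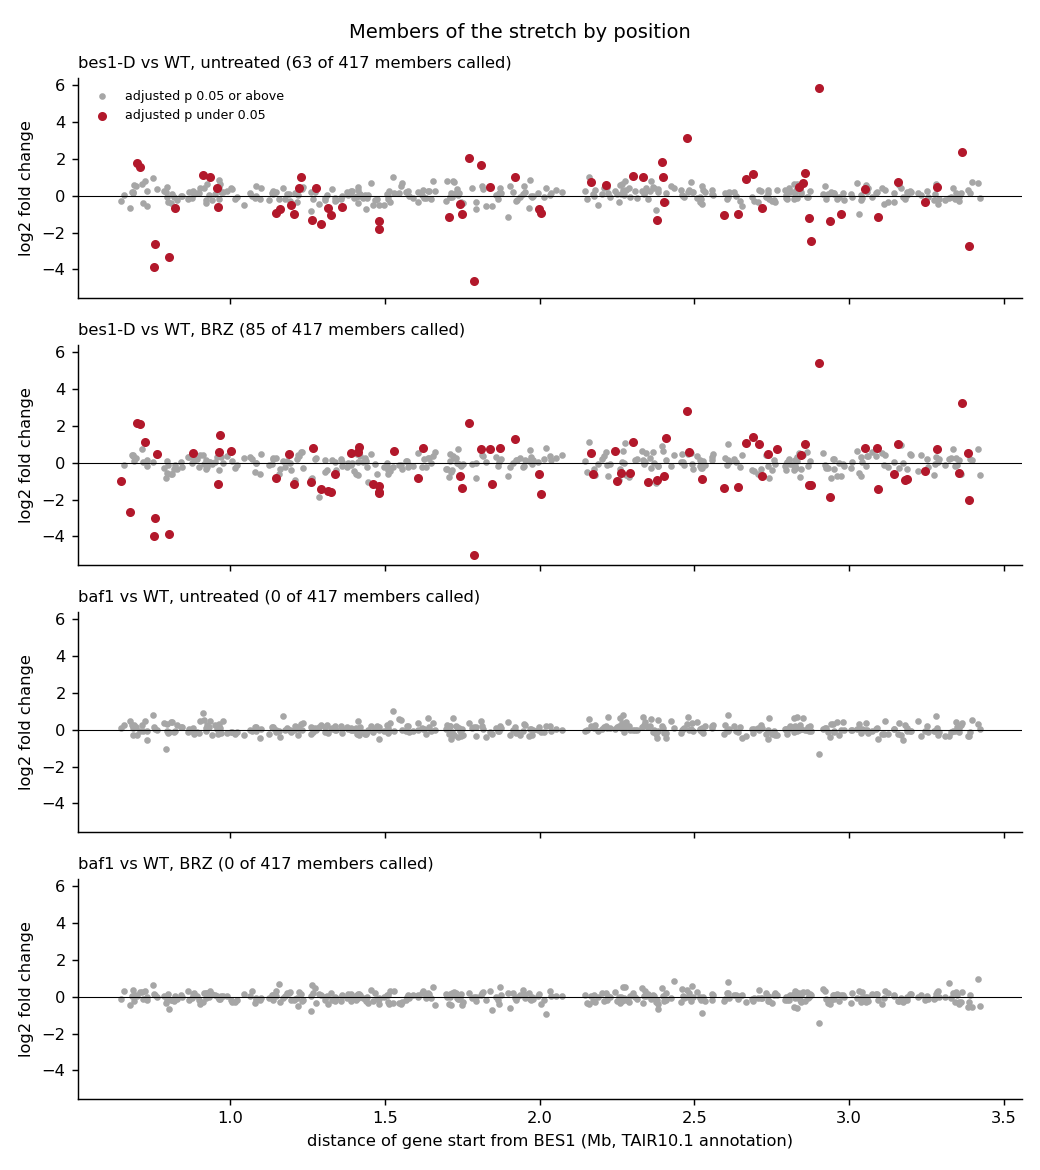
Each point is 1 of the 417 members at the distance of its start from *BES1* (x axis, Mb) with its log2 fold change (y axis), for *bes1-D* and *baf1* against WT in each condition. Called members (red, adjusted p under 0.05) lie along the whole stretch in both *bes1-D* panels. They are 63 untreated (15.1%, against 7.5% of all tested genes) and 85 under BRZ (20.4%, against 11.1%). There are none in the *baf1* panels, where 0.129% of all tested genes were called untreated and 0.049% under BRZ.

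Members of the other families were read from lists chosen with earlier results known, and their counts stand beside 7.5% of all tested genes called untreated and 11.1% under BRZ. The sugar-transferring enzyme *UGT85A2* (AT1G22360) fell in both conditions, with 605, 652 and 667 normalized reads in WT and 255, 282 and 326 in *bes1-D* under BRZ, and 478 to 548 against 235 to 276 untreated. It fell by 1.16 ± 0.14 (SE) on the log2 scale under BRZ (limma adjusted p 7.24e-06), and it was the 1 of 3 tested *UGT85A* genes that was called in either condition. Of 13 tested transcription factors of the 24 listed, 2 fell untreated, and 3 fell and 1 rose under BRZ. *RAP2.4D* (AT1G22190), of the AP2/ERF family, had 204 ± 17.8 in WT and 109 ± 31.4 in *bes1-D* untreated (SD, n = 4 each), and 262 ± 22.9 and 147 ± 34.8 under BRZ (SD, n = 3 each). *MYB3* (AT1G22640), a repressor of phenylpropanoid genes, fell by 0.67 untreated (limma adjusted p 0.0491) and by 1.56 under BRZ (limma adjusted p 3.02e-06). *TEM1* (AT1G25560), a repressor of flowering, fell by 0.57 (limma adjusted p 0.0294) and *BBX15* (AT1G25440), a B-box factor, rose by 0.63 (limma adjusted p 0.00553), both under BRZ.

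Of 6 tested transporters, the sugar transporter *SWEET1* (AT1G21460), which overlaps AT1G21450 on the other strand, fell by 0.66 (limma adjusted p 0.0159) and *NPF5.16* (AT1G22550), of the nitrate and peptide transporter family, rose by 0.40 (limma adjusted p 0.0292) untreated, and no transporter was called under BRZ. Of 5 tested hormone and growth regulators, *DYL1* (AT1G28330), a dormancy-associated protein, fell by 0.33 untreated (limma adjusted p 0.017) and by 0.43 under BRZ (limma adjusted p 0.0446). *RCN1* (AT1G25490), a regulatory subunit of protein phosphatase 2A, fell by 0.55 under BRZ (limma adjusted p 0.0342). Of 2 tau glutathione transferases, *GSTU13* (AT1G27130) rose by 0.49 under BRZ (limma adjusted p 0.0239). None of 5 cytosolic ribosomal protein genes was called in either condition. All 5 *LPXC* copies and all 5 berberine bridge enzyme-like oxidase genes listed were below the mean of 10 and were not tested.

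For comparison, 4 of 5 brassinosteroid synthesis genes, which lie on other chromosomes and which BES1 is known to repress, fell in *bes1-D* in each condition. Of 5 tested genes that brassinosteroids are known to induce, 1 was higher and none lower untreated, with a median log2 change of -0.22, and under BRZ 3 were higher and *TCH4*, a cell wall enzyme gene, fell by 0.87 (limma adjusted p 0.0119). *DWF4*, the rate-limiting hydroxylase, had 106 ± 17.2 normalized reads in WT and 31.4 ± 4.97 in *bes1-D* untreated (SD, n = 4 each), and 229 ± 34.4 and 36.7 ± 12.4 under BRZ (SD, n = 3 each).

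In *baf1*, no member was called against WT, untreated or under BRZ, where 0.129% and 0.049% of all tested genes were called with limma. Shares this low leave little room for calls among the members, so their absence is no trait of the stretch. At an unadjusted p under 0.05 with a fold above 1.1, 36 members (8.63%, against 10.3% of all genes) differed untreated and 22 (5.28%, against 5.57%) under BRZ. The same WT libraries serve both mutants, so the values are given side by side. The 17 and 27 members below were picked by their calls in *bes1-D*, not in *baf1*. A larger median change in *bes1-D* is therefore built in, and the medians are a description. Over the 17 members that were higher in *bes1-D* in both conditions, the median log2 change was 1.17 in *bes1-D* and -0.01 in *baf1* untreated, and 1.15 and 0.07 under BRZ. Over the 27 that were lower, it was -1.05 and -0.09 untreated, and -1.36 and -0.12 under BRZ.

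When *bes1-D* was compared directly with *baf1*, a line that also carries the Col-0 label, 73 members (17.5%, against 6.82% of all genes) were called untreated, 40 higher in *bes1-D* (9.59%, against 3.5% of all genes) and 33 lower (7.91%, against 3.32%). Under BRZ 69 members were called (16.5%, against 7.02%), 31 higher (7.43%, against 3.58%) and 38 lower (9.11%, against 3.45%). Without *bes1-D* BRZ replicate 5, 45 were called (10.8%, against 4.04%), and without *baf1* BRZ replicate 4, 90 were (21.6%, against 11.8%). Beyond the calls, 25.4% of the members had untreated groups that did not overlap, against 11.4% of all tested genes, and 28.1% against 17.9% under BRZ. At the same unadjusted thresholds, 140 members (33.6%, against 18.4%) were called untreated and 136 (32.6%, against 20.7%) under BRZ. AT1G27580 was at most 1.37 normalized reads in any *baf1* library and *WAK2* was at least 46.9. The large differences of these members were thus present against both lines. Both members had to differ in *bes1-D* to be included as they are, and such members are counted among the calls. The same *bes1-D* libraries serve in the comparisons with WT and *baf1*, and their untreated values guided the choice of the stretch. The counts against *baf1* are therefore a description.

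The response to BRZ in WT was about as frequent among the members as among all tested genes. At an unadjusted p under 0.05 and a fold above 1.1, 49 members (11.8%, against 10.1% of all genes) differed between BRZ and untreated WT. With adjustment, 3 members were called in WT (0.719%, where 0.6% of all tested genes were called), and there were 9 (2.16%, against 1.65%) without untreated WT replicate 5 and 1 without untreated WT replicate 4 or any 1 of the 3 WT BRZ libraries. *PATL2* (AT1G22530), a Sec14-domain protein that binds membrane lipids and takes part in cell plate formation, had 2321, 2267, 2196 and 2591 normalized reads in untreated WT and 1472, 1294 and 1159 with BRZ. In *bes1-D* it had 2339, 2068, 1808 and 2006 untreated and 2376, 2241 and 2300 with BRZ. The WT groups did not overlap and the *bes1-D* groups did. It fell by 0.84 on the log2 scale in WT (limma adjusted p 0.00113), and the difference in BRZ response between *bes1-D* and WT was 1.02 (limma adjusted p 0.00284). It was the 1 member called in that test (0.24%, where 0.239% of all genes were). At an unadjusted p under 0.05 and a fold above 1.1 it gave 59 members (14.1%, against 13.7%). Without *bes1-D* BRZ replicate 1 the test called 8 members (1.92%, against 1.19% of all genes).

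The other members called for BRZ in WT were *UGT85A1* and AT1G21400. *UGT85A1* (AT1G22400), an enzyme that adds glucose to the cytokinin zeatin, had 292, 285, 344 and 349 normalized reads in untreated WT and 185, 192 and 198 with BRZ (limma adjusted p 0.0116). AT1G21400 rose in WT by 0.82 on the log2 scale (limma adjusted p 0.0212). Both calls were lost when some single libraries were left out, for *UGT85A1* any of 4 and for AT1G21400 any of 6. The next smallest adjusted p-values in the test of the BRZ response between *bes1-D* and WT were 0.0639 for AT1G28250 and 0.0845 for the RNA-binding protein gene AT1G22910.

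**Figure D4:**
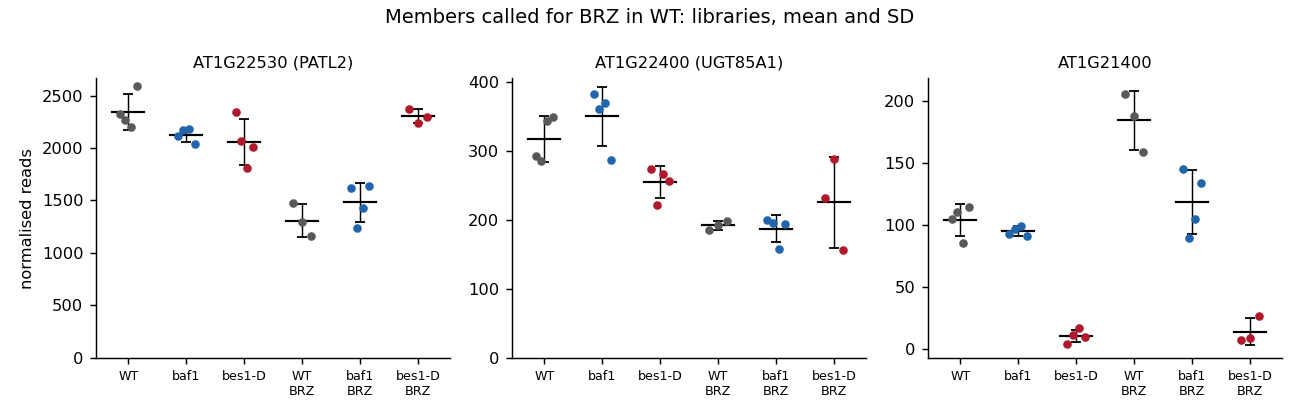
Normalized reads (y axis, from 0) of the 3 members called for BRZ in WT, in the 6 groups (x axis), with 1 point per library, a bar at the mean and whiskers of 1 SD. *PATL2* was 1159 to 1472 in WT with BRZ and 2241 to 2376 in *bes1-D* with BRZ, and AT1G21400 was at most 26.1 in any *bes1-D* library.

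Along the members' order, called genes were mixed with uncalled ones. The longest run of neighbouring members called untreated was 3, AT1G26250, AT1G26260 and AT1G26270, and the longest run of uncalled members was 29. No member had 3 or fewer normalized reads in every library of one genotype and a mean of at least 10 in the other. Among all tested genes except those left out by name, 4 were of this kind, all low in *bes1-D*. With a limit of 6 in place of 3 there were 3 members, AT1G21270 (*WAK2*), AT1G21280 and AT1G23960, all low in *bes1-D*. Their highest *bes1-D* values were 4.03, 5.26 and 4.36. These members had to differ in *bes1-D* to be included as they are. The limit of 6 was not counted over all genes, so the count is a description.

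The shares that follow require the untreated calls that were known when the stretch was picked, so the ranks describe it and do not support it. Divided by AGI number into bins of 1000, each of the 8 bins of the stretch had a larger share of genes called with a log2 change above 1 in both conditions than the 1.08% of all tested genes. In bins of 500 numbers, 80% of the bins of the stretch did, leaving out the bin from AT1G24500, which held 8 tested genes and none of this kind. The bins beginning at AT1G27000 (9.09%), AT1G23000 (8.93%) and AT1G21000 (7.94%) were the 3 highest of 259 bins with at least 20 tested genes across the 5 chromosomes. A bin far outside the stretch, beginning at AT1G63000, came next with 7.02%, above the remaining bins of the stretch. In it 24.6% of the genes were called untreated and 19.3% under BRZ. Of the 251 bins outside the stretch, 154 had none. The share was 0.561% in the flank AT1G13000 to AT1G20999, which holds *BES1*, 2.96% in the flank AT1G29000 to AT1G36999, where 13.5% of the genes were called untreated and 16.7% under BRZ, 1.29% in the rest of chromosome 1 and 0.596% to 0.959% on the other chromosomes.

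AGI numbers do not always follow position, so distances from *BES1* were also taken from the annotation, a choice made after the data were seen. Of the 5 genes in the bin beginning at AT1G06000 with such a change, AT1G06103, AT1G06273 and AT1G06587 lie 2.90, 3.62 and 5.09 Mb beyond *BES1*, inside the stretch or past its end. In windows of 0.5 Mb, none of 283 tested genes in the 1.5 Mb before *BES1* had such a change in both conditions, and 1 of 84 (1.19%) did in the 0.5 Mb that starts at *BES1*. In the 6 windows that hold the members the shares were 6.41%, 6.25%, 5.19%, 2.90%, 9.88% and 4.35%. Beyond the members' end they were 5.19%, 0, 7.04% and 4.55% in the next 4 windows, and 0 in both windows from 5.5 to 6.5 Mb, which held 49 and 25 tested genes. Calls of any size under BRZ were not particular to the members. They were 8.83% of tested genes in the 1.5 Mb before *BES1*, 21.4% in the 0.5 Mb that starts there, 20.3% from 0.5 to 3.5 Mb, 20.5% from 3.5 to 5.5 Mb and 9.38% from 5.5 to 8.5 Mb. For large changes in both conditions, 111 of the 204 windows elsewhere in the genome had none. The window from 17 to 17.5 Mb beyond *BES1* had 5.56%, with 21.1% of its genes called under BRZ.

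**Figure D5:**
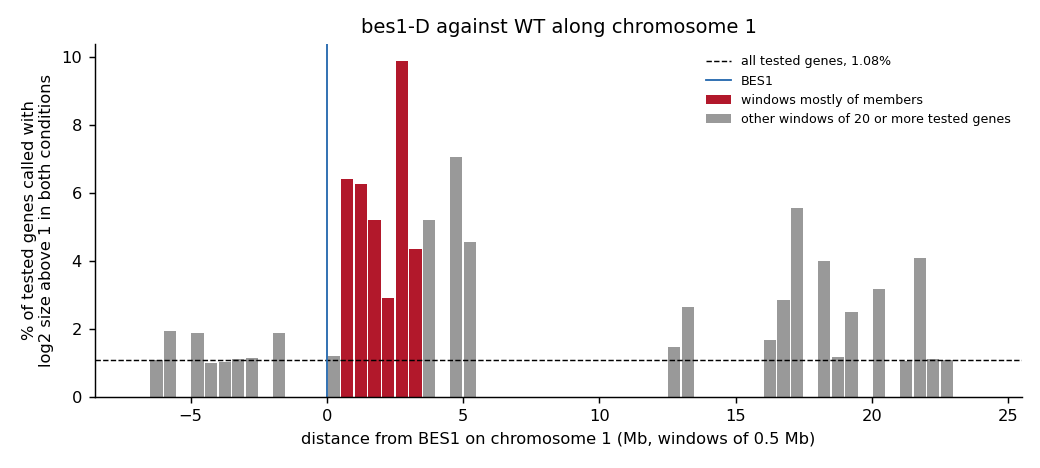
Share of tested genes (y axis, %) called in *bes1-D* against WT with a log2 change above 1 in both conditions, in windows of 0.5 Mb by distance from *BES1* on chromosome 1 (x axis, Mb), for windows of 20 or more tested genes. The 6 windows made up mostly of members (red) lie at 2.90% to 9.88%, above the dashed line at 1.08% for all tested genes, and the windows before *BES1* lie at or below 1.92%.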

How the data were processed

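The 22 libraries were 3′-end RNA sequencing of whole seedlings, in 6 groups taken from the sample labels. Per the submitters' processing notes, reads were aligned with STAR to TAIR10 and counted with HTSeq, with no versions given. The deposited signal values are normalized reads per gene that the authors equalized between libraries. Each column sums to 3633740 to 3636540 reads and the values are not whole, so no count model was used, and depth was estimated from 300 low genes. Positions and promoters came from the RefSeq TAIR10.1 annotation, matched by AGI identifier.

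Genes with a mean of at least 10 over the 22 libraries were tested on log2(value + 1) with limma 3.58.1 in R 4.3.3 (lmFit and eBayes with trend), with only the libraries of the groups compared, and Benjamini-Hochberg adjustment over 16331 genes. A call is a two-sided adjusted p under 0.05. The difference in BRZ response was an interaction term. Tested on simulated data with 200 changed genes, the fit recovered 97% of log2 changes of 2 and 55% of changes of 1 untreated, and 95% and 36% under BRZ. It made 13 false calls untreated, 7.88% of its calls, and 6 under BRZ, 4.38% of its calls. The simulation gave every gene the same assumed spread between replicates and left out the authors' equalization. It also held fewer changed genes than were called in the data. These rates therefore need not hold for the deposited values.

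Members called untreated with the 12 largest rises and 12 largest falls were named, with the 3 members of smallest adjusted p for BRZ in WT and for the interaction, any member called in *baf1* against WT (none), and the called members of the gene lists. The members and gene lists were chosen with earlier results of these data known. The study's thresholds, an unadjusted p under 0.05 with a fold above 1.1, were tried with limma p-values in place of its PoissonSeq test as an alternative, as were other pseudocounts, filters, scalings, a replicate block and leaving out each library.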

Additional observations from a re-analysis of the deposited data

Results flagged for a closer look

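In groups of 4 libraries, 112 groups over 28 named genes were checked for 1 library far from the other 3, and 9 were found, where chance gives about 1 in 20. In *bes1-D*, AT1G27580 was 188.9 normalized reads in untreated replicate 2 (207.0 to 209.9 in the others), and AT1G23052 was 27.38 in untreated replicate 3 (14.96 to 16.4). The other 7 were in *baf1*. AT1G26530 was 7.067 in BRZ replicate 1 (4.955 to 5.267). AT1G27020 was 407.9 in untreated replicate 3 (498.8 to 506.4) and 657.1 in BRZ replicate 1 (457.7 to 479.1). AT1G23960 was 80.68 in untreated replicate 3 (53.43 to 56.58). AT1G23052 was 55.84 in BRZ replicate 2 (46.12 to 47.63). AT1G27670 was 36.38 in untreated replicate 4 (27.79 to 28.55). *UGT85A1* (AT1G22400) was 158.0 in BRZ replicate 3 (193.4 to 200.3).

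The response of *PATL2* (AT1G22530) to BRZ differed between *bes1-D* and WT, with a log2 difference of 1.02 (limma interaction term, adjusted p 0.00284).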

How the results depend on the processing

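Counts below are members called. With no filter on low values the counts were 31 untreated and 13 under BRZ for *bes1-D* against WT, 9 in both, 35 and 26 for *bes1-D* against *baf1*, and 0 for BRZ in WT and for the interaction. The 35 and 26 were 8.39% and 6.24% of the members, against 1.26% and 0.892% of all genes. At the study's thresholds with limma p-values they were 143 and 144, 79 in both, 36 and 22 for *baf1* against WT, 140 and 136 for *bes1-D* against *baf1*, 49 for BRZ in WT and 59 for the interaction. With all 22 libraries in the fit, BRZ in WT gave 6 (1.44%, against 1.21% of all genes) and the interaction 2 (0.48%, against 0.527%). A fold above 1.5 left 47 for *bes1-D* against *baf1* untreated, and a floor of 6 gave 3 members off in one genotype. The cause was not tested.

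Same-numbered libraries correlated at -0.004 to 0.140 for untreated *bes1-D* and WT, -0.049 to 0.261 under BRZ, 0.004 to 0.085 and -0.089 to 0.190 for *baf1* and WT, -0.006 to 0.066 and -0.160 to 0.214 for *bes1-D* and *baf1*, and 0.044 to 0.224 for BRZ in WT. No comparison had 3 or more pairs all above 0.1, so the numbers were not taken as pairs. The replicate block gave 100 members untreated (24%, against 13.8% of all genes), 76 under BRZ (18.2%, against 10.8%), 1 for *baf1* under BRZ (0.24%, against 0.294%) and 14 for BRZ in WT (3.36%, against 2.77%).

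Leaving out 1 library at a time gave 41 to 84 members untreated, 54 to 90 under BRZ, 33 to 53 in both, 0 in either *baf1* comparison with WT, 60 to 73 and 45 to 90 for *bes1-D* against *baf1*, 1 to 9 for BRZ in WT, 1 to 8 for the interaction, and 0 to 1 off in one genotype. Of the members, 9.83% to 20.1% were called untreated (4.26% to 11% of all genes) and 12.9% to 21.6% under BRZ (6.06% to 12.8%). For *bes1-D* against *baf1* it was 14.4% to 17.5% untreated (5.02% to 6.54%) and 10.8% to 21.6% under BRZ (4.04% to 11.8%). The share of bins of the stretch above that of all genes was 87.5% to 100%, and 80% in bins of 500 numbers without the bin of 8 tested genes. Without 27 members that resemble or overlap another gene, a choice made after seeing the data, 58 were called untreated, 80 under BRZ and 41 in both. No share over all genes was taken for the counts without these 27, at a fold above 1.5, at a floor of 6, or in both conditions in this section. Of 805 alternative values of named genes, 743 kept their side of the threshold, 55 lost the call, 7 gained it and 0 reversed.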
